A study of Rattus norvegicus with 6 samples.

Results

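The AP-1 and ATF transcription factors described here are 10 rat genes taken by their symbols, namely Jun, Junb, Jund, Fos, Fosb, Fosl1, Fosl2, Atf3, Atf4 and Atf5. They were 10 of the 27943 gene symbols in the deposited table, each was found there, and all 10 passed the filter on low values. The RNA came from whole dorsal root ganglia (DRG) of lumbar levels L4-6 on the operated side of male Sprague-Dawley rats, taken at day 11 after surgery. In the CCI group (n = 3) the left sciatic nerve had been loosely ligated, which is the chronic constriction injury model of neuropathic pain, and in the sham group (n = 3) the nerve had been exposed and left untied. The sample labels name no treatment for the sham rats and give no age, and the description of the nerve exposure comes from the study's methods. The library protocol in the labels mentions a pooled sample, whereas the methods describe 1 rat per sample. The description in the methods was used here. No transgene or mutation is named for either group. The ganglia were not sorted, so each value is a mixture of sensory neurons whose axons were or were not constricted, satellite glia, Schwann cells, vessels and immune cells, and a change in the number of cells of a type cannot be told apart from a change in RNA per cell.

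AP-1 is a dimer of basic leucine zipper (bZIP) proteins. A Jun protein pairs with another Jun protein or with a Fos protein, and Fos proteins need a Jun partner. Jun kinases, which act downstream of the axonal stress kinase DLK, phosphorylate Jun after an axon is damaged, and Jun then raises transcription of its own gene. ATF3 is a stress-induced partner of Jun and the most widely used nuclear marker of an injured sensory neuron, and ATF4 and ATF5 are controlled largely at translation, by phosphorylation of the initiation factor eIF2. Fos, Fosb, Junb and Egr1 are immediate early genes, which are transcribed within minutes of a stimulus and then decay.

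The AP-1 dimer recognises TGACTCA and ATF dimers recognise the cyclic AMP response element TGACGTCA, and both are shown here because they are the sites these members bind. RefSeq promoter sequences (build GRCr8, 250 bases before to 50 bases after the start) were found for 7 of the 10 genes, with no entry for Jun, Fos and Atf3. Of all 33469 promoters of that length, 4.63% held TGACTCA or its reverse complement and 1.83% held TGACGTCA, which is its own reverse complement. The amino acid response element form TGATGCAA, searched on both strands, was in 0.795% of them. These letters were found in the promoters of Jund and Atf5, printed below 5' to 3' on the minus strand with the motif in capitals and with up to 10 bases on each side.
Jund, chr16:18769975-18770002, TGACGTCA: cccacccccaTGACGTCAacccacaatg
Atf5, chr1:104434917-104434943, TGACTCA: caagcagcttTGACTCAaccccaccca
The first base of the Jund motif lay at position -221 and that of the Atf5 motif at position -138 relative to the start. The windows of Junb, Fosb, Fosl1, Fosl2 and Atf4 held none of the 3 motifs in these letters. A match or its absence describes the letters of the window alone.

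Libraries held 75423546 to 87615743 counts, and 3 counts, the detection limit used here, stood for 0.0342 to 0.0398 CPM, that is, counts relative to the library total. Sham 1 held more skeletal muscle RNA than the other libraries, with a summed level of 8 tested muscle markers of 153 FPKM against 4.37 to 21.9 FPKM elsewhere. FPKM are fragment counts scaled by library size and by gene length, a level per length that allows genes to be set side by side. Macrophage markers, summed over the list, were at 345, 247 and 249 FPKM in CCI 1, 2 and 3 and at 151, 135 and 148 FPKM in sham 1, 2 and 3. Sensory neuron markers were high in all libraries, as the tissue label requires. Their sums were 2244, 2323 and 2316 FPKM in CCI 1, 2 and 3 and 2365, 2575 and 2511 FPKM in sham 1, 2 and 3. Every CCI sum was below every sham sum, an order that rested on Nefh, a neurofilament gene named after its values were seen. Nefh had 515, 615 and 580 FPKM in CCI 1, 2 and 3 and 777, 829 and 860 FPKM in sham 1, 2 and 3. Of the 18 markers, 8 had every CCI library below every sham library and 2 had the opposite order. No label gives a batch or a sequencing date.

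Jun and Atf3 were upregulated in the CCI group, Atf3 11.1-fold and Jun 2.08-fold, and the other 8 members did not pass the test. The plot of levels by library shows all 10 genes together. Genes were called with edgeR's quasi-likelihood test at the study's own limits, which ask for p below 0.05 before adjustment and for an absolute log2 fold change of 0.58 or more. At these limits 2 of 10 members were higher and 0 were lower, beside 2.57% of all 26663 rows tested that were higher and 1.26% that were lower. With Benjamini-Hochberg adjustment over all rows, Atf3 alone stayed under 0.05 (1 of 10 members, beside 0.0638% of all rows higher and 0.0300% lower). No member had an unadjusted p under 0.05 on the lower side, and DESeq2 and limma called 0 members lower as well. The median log2 fold change of the members was 0.35 and 9 of 10 were above 0, while the median over all rows was 0.01 with 13613 rows above 0.

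**Figure D1:**
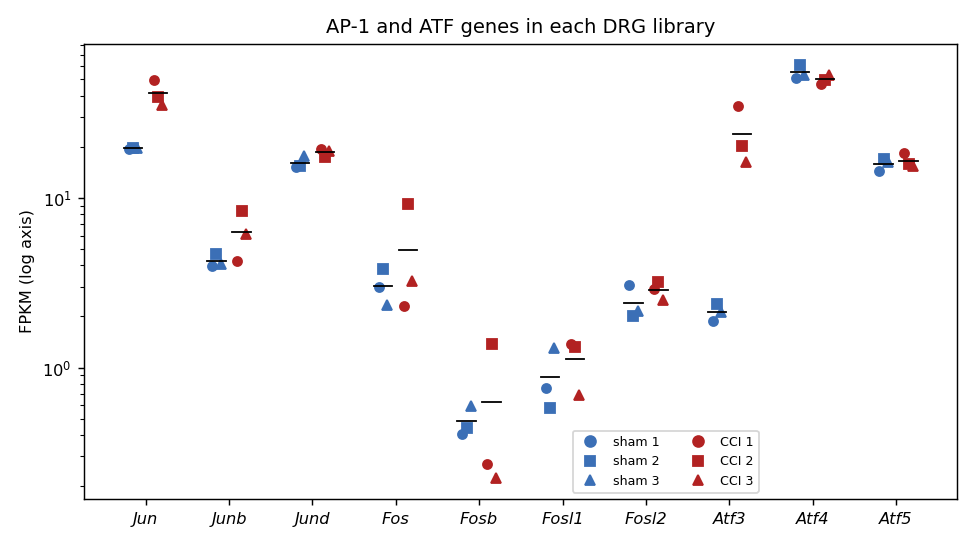
Level of each AP-1 and ATF gene in FPKM (log axis) in the 3 sham (blue) and 3 CCI (red) libraries, with marker shape giving the library number and a bar at the group mean. The CCI points of Jun and Atf3 lie above all sham points, and the groups of the other 8 genes overlap.

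Atf3 (chr13:109817728-109902899, minus strand, in the coordinates of the authors' rat genome V101) had 34.9, 20.3 and 16.2 FPKM in CCI 1, 2 and 3 and 1.89, 2.36 and 2.11 FPKM in sham 1, 2 and 3. Every CCI library was far above every sham library, and CCI 1 was the highest. The group levels were 23.8 ± 9.81 FPKM (SD, n = 3) and 2.12 ± 0.236 FPKM (SD, n = 3). Within the CCI group the highest library exceeded the lowest 2.15-fold, and in the sham group 1.25-fold. The log2 fold change was 3.47 (SE 0.31, 95% interval 2.73 to 4.21, edgeR adjusted p = 0.0296). Atf3 was present in sham ganglia as well, at 555, 634 and 593 counts in sham 1, 2 and 3. The fold change stayed between 2.92 and 3.68 on the log2 scale in all alternatives tried and Atf3 met the unadjusted limits in each, but its adjusted p ranged from 1.43e-38 to 0.194. It was above 0.05 without CCI 2 (0.101), without sham 1 (0.139), without sham 2 (0.120) and without sham 3 (0.151), and also without a trend in edgeR's prior (0.0592).

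Jun (chr5:114011189-114014277, minus strand), the core AP-1 subunit, had 49.4, 39.4 and 35.4 FPKM in CCI 1, 2 and 3. In sham 1, 2 and 3 it had 19.5, 19.7 and 19.8 FPKM. The sham libraries were almost identical, with the highest 1.02-fold over the lowest, and the lowest CCI library lay well above them. Group levels were 41.4 ± 7.20 FPKM and 19.7 ± 0.164 FPKM (SD, n = 3 each), and the log2 fold change was 1.06 (SE 0.12, 95% interval 0.76 to 1.36, edgeR adjusted p = 0.0712). Jun thus met the unadjusted limits and not the adjusted one. It met the unadjusted limits in all 17 alternatives, between 0.91 and 1.16 on the log2 scale, and its adjusted p ranged from 7.80e-12 to 0.227. Its adjusted p was under 0.05 without CCI 1 (0.0167) and without CCI 3 (0.0460).

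Jun and Atf3 were also the members whose 3 CCI libraries all exceeded the 3 sham libraries (2 of 10), beside 9.73% of all rows with that order and 7.56% with the opposite order. No member had the opposite order. In both genes the 3 CCI libraries stood in the same order, with CCI 1 above CCI 2 above CCI 3. The macrophage sum was also highest in CCI 1, and its part in the levels of Jun and Atf3 was not tested. Without sham 1, the library with the muscle RNA, the log2 fold changes were 1.05 for Jun and 3.38 for Atf3.

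**Figure D2:**
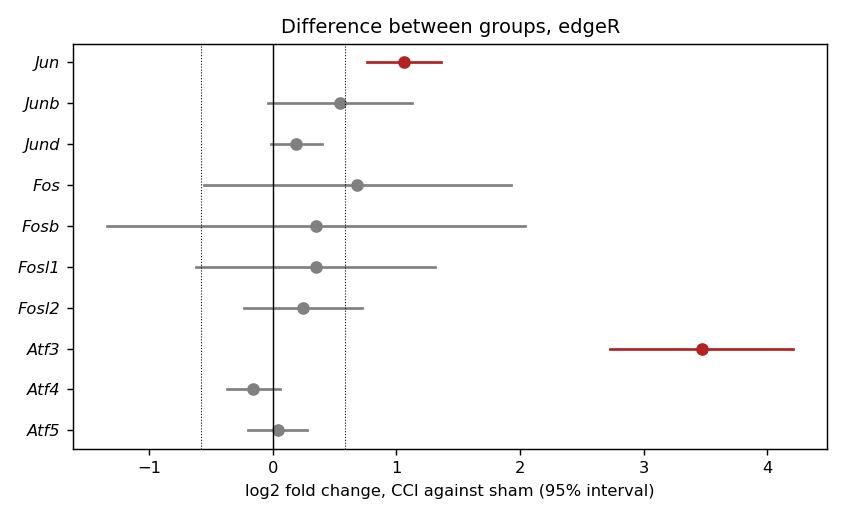
Log2 fold change of each gene, CCI against sham, from edgeR with its 95% interval, where red marks the 2 called genes and dotted lines the limits of 0.58 in size. The intervals of Jun and Atf3 lie above 0 and those of the other 8 genes include 0.

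Junb and Jund, which encode the other Jun proteins, did not pass the test. Junb (chr19:26092974-26094756, minus strand), which can hold back Jun and is itself an immediate early gene, had 4.27, 8.40 and 6.11 FPKM in CCI 1, 2 and 3 and 3.98, 4.68 and 4.07 FPKM in sham 1, 2 and 3. CCI 2 and 3 were above all sham libraries and CCI 1 was among them. Its log2 fold change was 0.54 (SE 0.24, 95% interval -0.04 to 1.12, edgeR adjusted p = 0.501), and without CCI 1 it was 0.75, which met the unadjusted limits. Jund (chr16:20485029-20486707, minus strand), the Jun protein present in most resting cells, had 19.4, 17.5 and 19.0 FPKM in CCI 1, 2 and 3 and 15.3, 15.5 and 17.7 FPKM in sham 1, 2 and 3. The groups overlapped narrowly, between CCI 2 and sham 3, and the log2 fold change was 0.19 (SE 0.09, 95% interval -0.02 to 0.40, edgeR adjusted p = 0.508). A rise of Jund as large as that of Jun lies outside this interval.

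Jun made up a larger share of its family in every CCI library than in any sham library. It gave 67.6%, 60.3% and 58.5% of the summed FPKM of Jun, Junb and Jund in CCI 1, 2 and 3, against 50.3%, 49.3% and 47.7% in sham 1, 2 and 3. The means were 62.1% ± 4.77 and 49.1% ± 1.31 (SD, n = 3 each), a difference of 13.0 points. The two-sided exact permutation p = 0.1 was the smallest that 3 libraries against 3 can give. The share of Jund was 26.6% to 31.4% in the CCI group and 38.9% to 42.5% in the sham group. That of Junb was 5.84% to 12.9% and 9.81% to 11.7%, with overlap. Summed over the 3 genes the family stood at 73.1, 65.4 and 60.4 FPKM in CCI 1, 2 and 3 and at 38.7, 39.8 and 41.5 FPKM in sham 1, 2 and 3.

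None of the 4 Fos family genes, which supply the partners that cannot act without a Jun protein, passed the test in either direction. With all libraries and the rows used, none had an unadjusted p under 0.05 in edgeR or was called by DESeq2 or limma. Fos (chr6:109300433-109303299, plus strand) had 2.30, 9.22 and 3.25 FPKM in CCI 1, 2 and 3 and 2.98, 3.80 and 2.33 FPKM in sham 1, 2 and 3. CCI 2 alone was high, and CCI 1 was lower than every sham library. The log2 fold change of 0.68 (SE 0.52, 95% interval -0.56 to 1.92, edgeR adjusted p = 0.724) rested on CCI 2, and it was -0.14 without that library.

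Fosb (chr1:80214494-80221710, minus strand), which also encodes a truncated and long-lived protein, behaved likewise at a level near the filter of 0.5 FPKM. It had 0.270, 1.38 and 0.223 FPKM in CCI 1, 2 and 3 and 0.407, 0.443 and 0.596 FPKM in sham 1, 2 and 3. CCI 2 was above all sham libraries and CCI 1 and 3 were below them. The log2 fold change was 0.35 (SE 0.70, 95% interval -1.34 to 2.04, edgeR adjusted p = 0.913). Without CCI 2 it was -0.98, which met the unadjusted limits on the lower side, so its sign rested on 1 library.

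Fosl1 (chr1:220826560-220835066, plus strand) and Fosl2 (chr6:25598936-25617937, minus strand) encode FRA-1 and FRA-2, the Fos-related proteins without the strong activation domain of Fos. Fosl1 had 1.38, 1.33 and 0.687 FPKM in CCI 1, 2 and 3 and 0.756, 0.578 and 1.30 FPKM in sham 1, 2 and 3. Fosl2 had 2.92, 3.21 and 2.51 FPKM in CCI 1, 2 and 3 and 3.05, 2.01 and 2.15 FPKM in sham 1, 2 and 3. The groups of both genes overlapped. Their log2 fold changes were 0.35 (SE 0.40, 95% interval -0.62 to 1.31) and 0.25 (SE 0.20, 95% interval -0.23 to 0.72), with edgeR adjusted p = 0.837 and 0.744. Both symbols are carried by another, unstranded row of the table that was not used by the rule. The other Fosl2 row (chr6:25594315-25598716) had 4.52, 4.09 and 3.84 FPKM in CCI 1, 2 and 3 and 3.08, 3.63 and 3.67 FPKM in sham 1, 2 and 3. The groups of that row did not overlap, but its log2 fold change of 0.25 (SE 0.11, edgeR adjusted p = 0.498) did not pass either limit. It held 1303 to 1773 counts a library, against 346 to 575 in the row used. With the 2 Fosl2 rows summed, chosen after seeing the data, the log2 fold change was 0.25 (SE 0.08). Its edgeR unadjusted p was 0.0231 and its adjusted p 0.368, and the change stayed below the limit in size.

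Across the family, with the rows used, the Fos genes were scarce beside the Jun genes. The other rows of Fosl1 and Fosl2 are not in the values that follow. The ratio of the summed FPKM of the 4 Fos genes to that of the 3 Jun genes was 0.0940, 0.232 and 0.110 in CCI 1, 2 and 3 and 0.186, 0.171 and 0.154 in sham 1, 2 and 3. CCI 1 and 3 were below the sham range and CCI 2 above it. The difference of the means was -0.0250 (0.145 ± 0.0752 against 0.170 ± 0.0161, SD, n = 3 each, two-sided exact permutation p = 0.7), and it was 0.000666 without CCI 1. The Fos genes summed to 6.87, 15.1 and 6.67 FPKM in CCI 1, 2 and 3 and to 7.20, 6.83 and 6.38 FPKM in sham 1, 2 and 3.

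**Figure D3:**
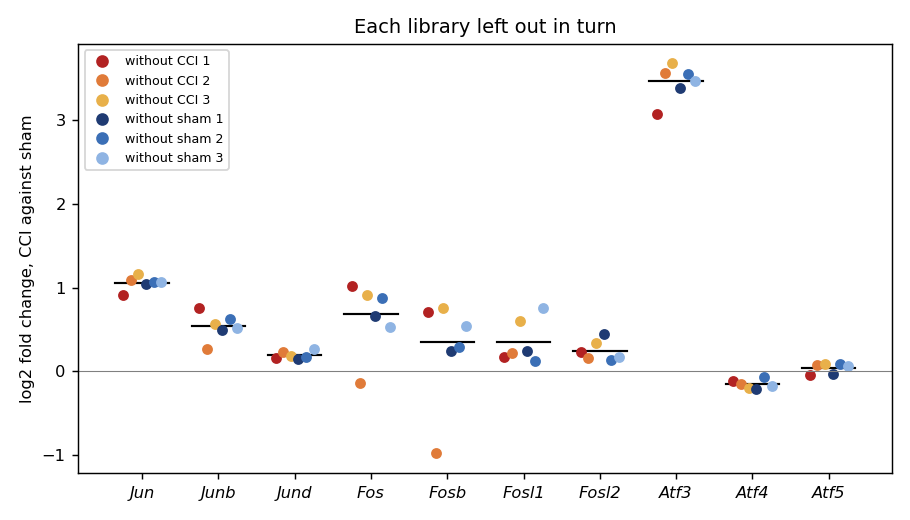
Log2 fold change of each gene, CCI against sham, with each of the 6 libraries left out in turn (coloured points) and with all libraries (bar). Jun and Atf3 keep a positive value in every case, while Fos and Fosb fall to -0.14 and -0.98 without CCI 2.

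Atf4 and Atf5, which turn on amino acid supply and mitochondrial stress genes once eIF2 is phosphorylated, did not pass the test at the RNA level. Atf4 (chr7:121480723-121482772, plus strand) had the highest mean level of the members in both groups, although Jun exceeded it in CCI 1, with 46.7, 49.8 and 53.3 FPKM in CCI 1, 2 and 3 and 50.7, 61.1 and 53.2 FPKM in sham 1, 2 and 3. The groups overlapped, and the log2 fold change was -0.16 (SE 0.09, 95% interval -0.37 to 0.06, edgeR adjusted p = 0.618). Atf5 (chr1:100807744-100810522, minus strand) had 18.4, 15.9 and 15.4 FPKM in CCI 1, 2 and 3 and 14.5, 17.0 and 16.3 FPKM in sham 1, 2 and 3. Its log2 fold change was 0.04 (SE 0.10, 95% interval -0.20 to 0.28, edgeR adjusted p = 0.936), with libraries of both groups intermingled. These are transcript levels, and the proteins were not measured.

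Among the 3 ATF genes the share of Atf3 was 34.9%, 23.6% and 19.1% of their summed FPKM in CCI 1, 2 and 3, and 2.82%, 2.94% and 2.95% in sham 1, 2 and 3. The lowest CCI share was several times the highest sham share. The means were 25.9% ± 8.12 and 2.90% ± 0.0725 (SD, n = 3 each), a difference of 23.0 points with a two-sided exact permutation p = 0.1, again the smallest possible. Atf4 gave 46.7% to 62.7% in the CCI group and 74.3% to 75.9% in the sham group. Atf5 gave 18.2% to 18.5% and 21.2% to 22.8%. The ratio of Atf3 to Jun, a pair whose proteins dimerize, was 0.706, 0.514 and 0.459 in CCI 1, 2 and 3 and 0.0971, 0.120 and 0.107 in sham 1, 2 and 3.

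**Figure D4:**
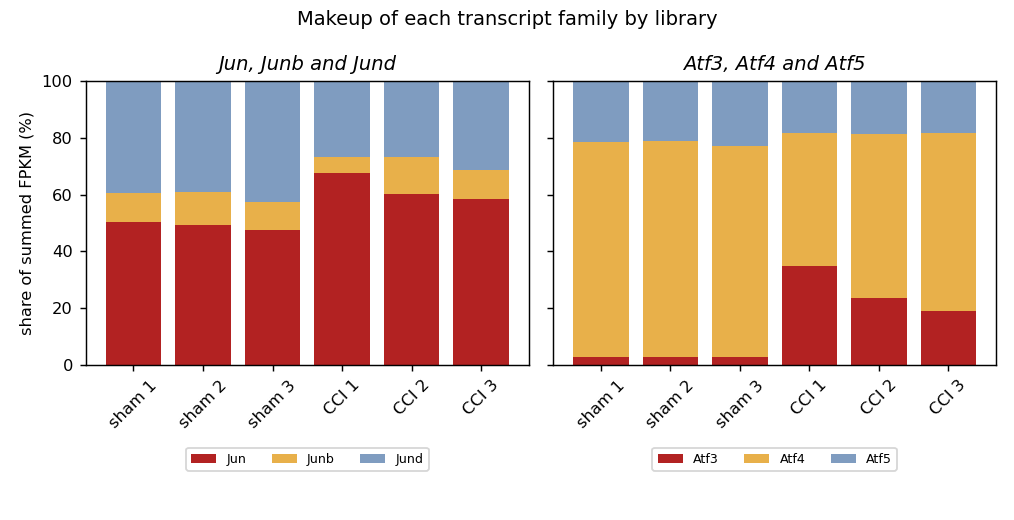
Share of each gene, in percent, in the summed FPKM of Jun, Junb and Jund (left) and of Atf3, Atf4 and Atf5 (right), 1 bar for each of the 6 libraries. The Jun share is 58.5% to 67.6% in CCI and 47.7% to 50.3% in sham, and the Atf3 share 19.1% to 34.9% and 2.82% to 2.95%.

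Ordered by level per length, sham ganglia held Atf4 above Jun, then Jund and Atf5, then Junb, then Fos, Fosl2 and Atf3, and last Fosl1 and Fosb. The places of Fosl1 and Fosl2 depend on the rows used, as their other rows had sham means of 1.35 and 3.46 FPKM. Jund and Atf5 had overlapping ranges, as did neighbours among Fos, Fosl2 and Atf3 and the pair Fosl1 and Fosb. In the CCI group Atf4 and Jun overlapped at the top, followed by Atf3, Jund and Atf5, whose neighbouring ranges overlapped. Atf3 ranked 8 in the sham group and 3 in the CCI group. Junb, Fos and Fosl2 overlapped below them, and Fosl1 and Fosb remained last. The spread among CCI libraries was widest for Fosb (highest over lowest 6.20-fold) and Fos (4.01-fold). CCI 1 was the highest CCI library for Jun, Jund, Fosl1, Atf3 and Atf5, CCI 2 for Junb, Fos, Fosb and Fosl2, and CCI 3 for Atf4.

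The genes closest in pattern to Jun and Atf3 were sought among 13097 protein-coding rows by the root mean square difference of centred log2 CPM over the 6 samples. Nearest to Jun were Csrnp1 (distance 0.0700), a nuclear protein, Ctss (0.0732), the lysosomal protease cathepsin S of macrophages, and Adcyap1 (0.0774), the neuropeptide PACAP of injured sensory neurons. Their log2 fold changes lay between 1.0 and 1.10. Nearest to Atf3 were Pde6b (0.256), a phosphodiesterase, Csrp3 (0.357), a LIM protein, and Ankrd1 (0.395), an ankyrin repeat protein, with log2 fold changes of 3.61, 3.85 and 3.64. The neighbours were chosen on these same values, so similar fold changes and library orders follow from the choice. The distances were larger for Atf3 than for Jun, and the measure is not scaled by the size of the change. Pde6b, the nearest, had 4.36, 2.18 and 2.01 FPKM in CCI 1, 2 and 3 and 0.136, 0.288 and 0.258 FPKM in sham 1, 2 and 3, with the same order of CCI libraries.

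In the annotation carried by the table, all 10 members had the term DNA-binding transcription factor activity, held by 505 of the rows tested. The term cellular response to calcium ion was held by 5 of them (Jun, Junb, Jund, Fos and Fosb) among 56 rows. The term response to mechanical stimulus was held by Jun, Jund, Fos, Fosb and Fosl1 among 59 rows.

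Of 25 tested JNK, ERK and p38 kinases and scaffolds, 0 were called in either direction by edgeR, 1 was higher and 4 lower at an unadjusted p under 0.05, and the median log2 fold change was -0.01. The most abundant, the kinase Mapk3 (ERK1) and the scaffold Mapk8ip3 (JIP3), had log2 fold changes of 0.04 (SE 0.06) and -0.07 (SE 0.07). Named after their values were seen, the DLK gene Map3k12 had a log2 fold change of -0.05 (SE 0.05), its relative Map3k13 -0.28 (SE 0.08, edgeR adjusted p = 0.279) and the JNK-activating kinase Map2k4 -0.25 (SE 0.05, edgeR adjusted p = 0.177). The activity of these enzymes is set by phosphorylation, which was not measured.

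Of 27 tested other bZIP factors 2 were called higher and 0 lower, beside the 2.57% and 1.26% of all rows, with a median log2 fold change of 0.05. Crem, a cyclic AMP responsive factor, had a log2 fold change of 0.75 (SE 0.31, edgeR adjusted p = 0.455), and Nfil3, a repressor bZIP protein, 0.65 (SE 0.25, edgeR adjusted p = 0.417). Crem had 1.64, 1.17 and 0.704 FPKM in CCI 1, 2 and 3 and 0.783, 0.656 and 0.616 FPKM in sham 1, 2 and 3, so its groups overlapped. Each lost its call without CCI 1, without sham 1 or without sham 2, and Crem also without CCI 2 or sham 3.

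The median log2 fold change of 14 tested ATF4 response targets, which serve amino acid supply and the stress response, was 0.08. At an unadjusted p under 0.05, 4 were higher and 1 lower. Of the 14, 1 was called higher and 0 lower, beside the 2.57% and 1.26% of all rows. The called gene was Aldh1l2, a mitochondrial folate enzyme, at 1.06 (SE 0.40, edgeR adjusted p = 0.412), and it lost its call without CCI 1, CCI 2 or any 1 sham library. Another list held 10 tested genes, namely the eIF2 kinases, an eIF2 subunit, an eIF2 phosphatase subunit, and the stress proteins Hspa5, Xbp1, Hspd1 and Lonp1. At an unadjusted p under 0.05, 2 were higher and 1, Hspd1, was lower. The higher genes, named after their values were seen, were the eIF2 kinases Eif2ak2 (log2 fold change 0.21, SE 0.09) and Eif2ak3 (0.19, SE 0.07). Their edgeR adjusted p were 0.465 and 0.378. Of the 10 genes 0 were called by edgeR in either direction, and the median was 0.01. The most abundant, the chaperones Hspa5 and Hspd1, had log2 fold changes of -0.27 (SE 0.15) and -0.20 (SE 0.06, edgeR adjusted p = 0.293).

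Of 12 tested AP-1 targets 4 were called higher and 0 lower, beside the 2.57% and 1.26% of all rows. Their median log2 fold change was 0.32, and 6 had all CCI libraries above all sham libraries, beside 9.73% of all rows. Ccl2, the monocyte chemokine, had 26.9, 24.9 and 22.7 FPKM in CCI 1, 2 and 3 and 12.1, 9.80 and 8.27 FPKM in sham 1, 2 and 3 (log2 fold change 1.29, SE 0.15, edgeR adjusted p = 0.0712). Mmp3, a matrix protease, was counted 216, 125 and 98 times in the CCI libraries and 0, 15 and 0 times in the sham libraries, both in order of number. Plau, the protease urokinase, had a log2 fold change of 0.75 (SE 0.19, edgeR adjusted p = 0.252). Another 3 genes of the list are named after their values were seen. Hmox1, the heme-degrading enzyme, was lower in every CCI library than in any sham library (log2 fold change -0.33, SE 0.10, edgeR adjusted p = 0.347) and was not called. Below the filter and not tested, Mmp13, a collagenase, was counted 35, 30 and 28 times in the CCI libraries and 115, 99 and 62 times in the sham libraries, and Il6, a cytokine, 164, 44 and 24 times in the CCI libraries and 0 times in every sham library. Ccl2 and Il6 are made by immune and other cells besides neurons, and the part of the higher macrophage sum in these values was not tested.

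The injury-response genes, many of them neuropeptides and growth-associated genes of injured sensory neurons, had the highest median of all the lists. Of 23 tested 16 were called higher and 0 lower, 4 of them also after adjustment (Gal, Npy, Flrt3 and Reg3b), and the median log2 fold change was 1.67. All CCI libraries exceeded all sham libraries for 21 of the 23. Beside these counts, 2.57% of all rows were called higher and 9.73% had that order. This list was assembled from genes known to respond to nerve injury. The study had already reported several of them, among them Gal, Npy, Vip, Sprr1a and Tgm1, as upregulated in these same libraries. The high counts of this list therefore follow in part from the choice of its genes. Npy, a neuropeptide, reached 6018, 3280 and 2650 counts in CCI 1, 2 and 3 against 68, 51 and 58 in sham 1, 2 and 3. Vip, another neuropeptide, had 1344, 374 and 240 counts against 0, 0 and 8. Sprr1a, a growth-associated small proline-rich protein, had 429, 133 and 115 against 6, 6 and 0, and Tgm1, a transglutaminase, 2642, 525 and 459 against 28, 33 and 45. In 15 of the 16 called genes CCI 1 was the highest CCI library, as it was for Jun and Atf3, for 9 of the 9 called macrophage markers and for 8989 of all 26663 rows.

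The median log2 fold change of 14 tested immediate early genes was 0.16. Of them 2 were called higher and 0 lower, beside the 2.57% and 1.26% of all rows. These were Btg2 and Zfp36, an antiproliferative factor and an RNA-decay factor, with log2 fold changes of 0.63 (SE 0.13, edgeR adjusted p = 0.188) and 0.60 (SE 0.20, edgeR adjusted p = 0.354). Both lost their call without CCI 2, and Zfp36 also without sham 2. At an unadjusted p under 0.05 in edgeR, 4 of the 14 were higher and 0 lower. All CCI libraries exceeded all sham libraries for 6 of the 14, and 1 had the opposite order, beside 9.73% and 7.56% of all rows. CCI 2 was the highest CCI library in 7 of the 14 genes and CCI 1 in 5, beside 8390 and 8989 of all 26663 rows. Among the members CCI 2 was the highest for Fos, Fosb, Junb and Fosl2, while CCI 1 was the highest for Jun, Jund, Fosl1, Atf3 and Atf5. Egr1, named after its values were seen, had 3.86, 9.58 and 6.51 FPKM in CCI 1, 2 and 3 and 5.60, 5.51 and 3.29 FPKM in sham 1, 2 and 3.

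**Figure D5:**
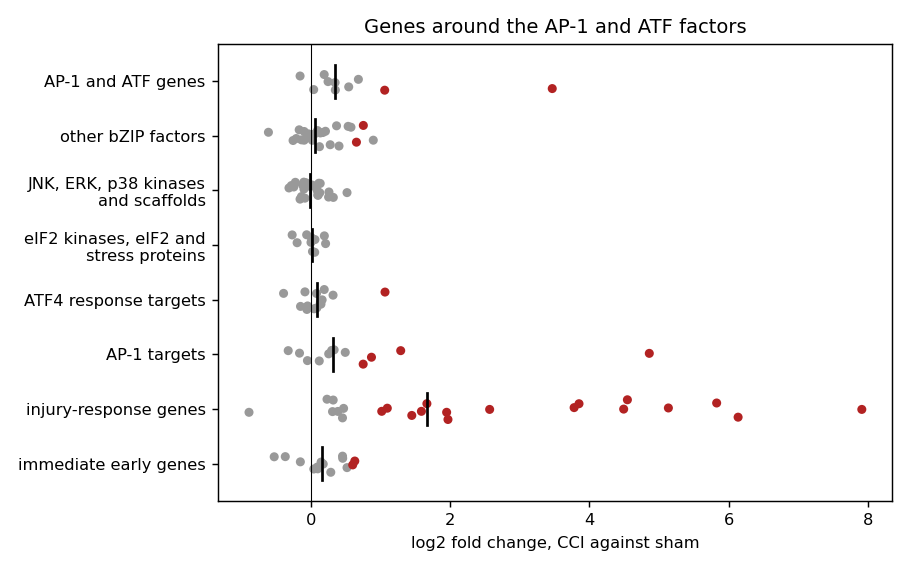
Log2 fold change, CCI against sham, of each tested gene of the members and of 7 gene lists, with red points for called genes and a bar at each list's median. The injury-response list has the highest median (1.67). The JNK, ERK and p38 list, which also holds Dusp phosphatases, lies around -0.01. Folds of genes with counts near 0 in sham, such as Vip, depend on the fit.

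Markers of the cells in the ganglion moved as follows beside these results. Of 15 macrophage markers 9 were called higher and 0 lower (median log2 fold change 0.87), beside the 2.57% and 1.26% of all rows. Among the 9 were the complement genes C1qa (1.13) and C1qb (1.12) and the fractalkine receptor Cx3cr1 (1.11). The study had already reported Cd68, Csf1r, Cx3cr1, Ctss and Tyrobp as upregulated in these same libraries. The count of this list therefore follows in part from the choice of its genes. Only 1 of 8 T cell markers was tested, Cd4 (0.68), which rat macrophages also express, while the defining genes Cd3d, Cd3e and Cd3g were below the filter. Gfap (1.01), an intermediate filament protein of reactive satellite glia, was the 1 of 8 satellite glia markers called higher, with 0 lower and a list median of 0.03. In the same list Fabp7, a fatty acid binding protein named after its values were seen, was lower in every CCI library than in any sham library (-0.55, SE 0.26, edgeR adjusted p = 0.537). Of 18 sensory neuron markers 0 were called higher and 1 lower, Pvalb (-0.69), a marker of proprioceptors, with a median of -0.15. At an unadjusted p under 0.05, 2 of the 18 were higher and 7 lower, and 8 had every CCI library below every sham library, beside 7.56% of all rows. Nefh, the heavy neurofilament of large neurons, named after its values were seen, had a log2 fold change of -0.54 (SE 0.08, edgeR adjusted p = 0.103) and met the unadjusted limits without CCI 2 or without sham 1. Pvalb had 60.5, 74.4 and 70.1 FPKM in CCI 1, 2 and 3 and 129, 94.8 and 104 FPKM in sham 1, 2 and 3. It lost its call without sham 1, the library with the muscle RNA. The part of muscle RNA in the Pvalb level was not tested. Of 8 Schwann cell, 5 endothelial and 6 fibroblast markers 0 were called by edgeR, with 1 Schwann cell marker lower at an unadjusted p under 0.05. Of 8 skeletal muscle markers 5 were called lower, a list in which sham 1 stood apart as given above. The part of these cells in the levels of Jun and Atf3 was not tested.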

How the data were processed

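RNA-seq of 6 bulk DRG samples was used. The count values are whole reads per gene row that the authors deposited, and the FPKM values are the authors' scaling of them by depth and length. The submitters' processing notes name HISAT2 2.0 and StringTie 1.3.0 for mapping and assembly, and the methods name rat genome V101. Use of strand in counting is not given in the sources used here. Totals were 75423546 to 87615743 counts. The p-values measure the spread between 3 libraries a group, each from 1 rat by the study's methods. Rows without a symbol held 5.37% to 5.72% of counts. No numeric column was left unused (0).

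Testing kept rows averaging 0.5 FPKM or more and used edgeR 4.0.16 (TMM, quasi-likelihood, trended prior, Benjamini-Hochberg adjustment over 26663 rows) in R 4.3.3. Differences in shares were tested with exact permutation (scipy 1.17.1), and intervals are 95%. Alternatives used DESeq2 1.42.0, limma 3.58.1 on log2(FPKM + 0.1) and log2(FPKM + 1), other scalings and filters, a replicate block and leaving out each library. Scripts were tested on simulated data. Named were all members, up to 4 called genes per list and direction with the largest fold changes, the 2 most abundant of a list without calls (not for marker lists), and the 3 rows nearest to each called member. The values of 1 called gene are not reported here. Other genes are said to be named after their values were seen. Gal, Flrt3 and Reg3b were named as the adjusted calls of their list. Where 2 rows carried a symbol, the stranded protein-coding row was used. Members and lists were chosen with earlier results of these data known. The libraries of the other RNA class were not analysed here.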

Additional observations from a re-analysis of the deposited data

How the results depend on the processing

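At the unadjusted limits 2 members were higher in every alternative that kept all libraries, and 2 to 3 with each library left out in turn (Junb was added without CCI 1). Members lower numbered 0 in all settings except without CCI 2, where Fosb made it 1 (range 0 to 1). Members higher after adjustment, 1 as reported, numbered 2 with DESeq2 and with protein-coding rows alone, 0 without a trend in the prior, and 0 to 2 with each library left out. With the replicate block, 0 members passed the adjusted limit (Atf3 adjusted p = 0.194) and 2 passed the unadjusted limits. Deviations of same-numbered CCI and sham libraries from their group means had correlations of -0.0106, -0.0218 and -0.0547 over all rows tested. With 3 libraries a group these values cannot show whether the rats were handled in pairs. With each library left out, Fos ranged from -0.14 (without CCI 2) to 1.02, Fosb from -0.98 (without CCI 2) to 0.75, Atf5 from -0.0456 (without CCI 1; -0.0310 without sham 1) to 0.0920, and Mapk3 from -0.000368 (without CCI 3) to 0.0876 in log2 fold change. Fosb was also at -0.0389 with limma on log2(FPKM + 0.1) and at -0.16 with the replicate block. The difference of the Fos to Jun ratio ranged from -0.0681 to 0.000666 with each library left out. The cause of these changes was not tested beyond the library left out. With limma on log2(FPKM + 1), 2 AP-1 targets, 0 other bZIP factors and 0 immediate early genes were called higher. Counting the 2 rows of Fosl1 and of Fosl2 as 1 each, chosen after seeing the data, left 2 members higher. Fosl2 then had an edgeR unadjusted p of 0.0231 and was not called. Raising the filter to 1 FPKM left out Fosb. Depth limited most the genes near 0 counts in sham, and the fitted log2 fold change of Mmp3 ranged from 4.27 to 10.2 with each library left out.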
